A study of Homo sapiens with 8 samples.

Results

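The chromatin regulators PBRM1, BAP1, SETD2, KDM5C, ARID1A, SMARCA4, SMARCB1, SMARCC1, KMT2D and EZH2, chosen by name as genes mutated in kidney cancer, were examined in a pair of kidney cancer cell lines. They are 10 of the 18693 protein-coding genes with a value in the RefSeq coding entries of the deposited RNA-seq tables, and their expression was compared between the ccRCC (clear cell renal cell carcinoma) lines A498 and 786-O and between SLINKY knockdown and control. SLINKY is a long intergenic non-coding RNA. Each line gave 4 libraries: 2 transfected with a non-target control siRNA (NTC, replicates 1 and 2) and 2 with siRNAs against SLINKY (siRNA1 and siRNA2, 1 library each), all at 50 nM for 16 h by the labels. The labels call the siRNAs pools, whereas the study's methods describe custom siRNAs against the first exon of SLINKY and RNA isolated at a later hour after transfection. A498 was grown in DMEM and 786-O in RPMI-1640, so cell line and medium cannot be told apart, and each line stands for 1 tumor. The labels do not say whether libraries of a group came from separate cultures, so p-values measure only the spread between these libraries, which may be technical.

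Expression was read in FPKM, a count of sequenced fragments divided by transcript length and by library depth, summed over the coding entries of each gene. SLINKY was 14.6 and 16.1 FPKM in the A498 NTC libraries against 1.64 and 3.01 with siRNA1 and siRNA2, and 1.45 and 1.39 against 0.0569 and 0.594 in 786-O. It was thus lower in each siRNA library than in both NTC libraries of its line. Depth, estimated from the deposited intervals of intronless genes, ran from about 25100000 to 64600000 mapped reads per library. Of 8 kidney epithelium and ccRCC markers, 7 averaged at least 1 FPKM in each line, with PAX8 at 39.2 to 42.9 in A498 and 41.9 to 48.1 in 786-O. CA9, the carbonic anhydrase used as a ccRCC marker, did not (0.293 to 0.559 and 0 to 0.0229 FPKM). None of 4 leukocyte, 3 endothelial and 1 hepatocyte markers reached 1 FPKM in either line, and PTPRC and CD3E were at 0 in all 8 libraries.

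The set covers machines that move nucleosomes and enzymes that mark or unmark histones. SWI/SNF complexes use the ATPase SMARCA4 or SMARCA2 to slide and evict nucleosomes around a core of SMARCC1, SMARCC2 and SMARCB1. The BAF form carries ARID1A or ARID1B, and the PBAF form carries PBRM1 and ARID2. SETD2 places the trimethyl mark on histone H3 lysine 36 over transcribed genes, KMT2D methylates H3 lysine 4 at enhancers, KDM5C removes methyl groups from that lysine, EZH2 is the catalytic subunit of Polycomb repressive complex 2 (PRC2), which methylates H3 lysine 27, and BAP1 removes ubiquitin from histone H2A. PBRM1, BAP1 and SETD2 lie on the short arm of chromosome 3, which most ccRCC tumors lose together with VHL, and mutations of these genes follow that loss.

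RefSeq promoter windows, the 250 bases before a transcription start, were on hand for 8 of the 10 genes (not SMARCC1 and BAP1), taken from the GRCh38.p14 table and matched once each to hg19 (GRCh37). The 4 shown here belong to the members with a printed window whose difference between the lines was widest. EZH2 is drawn from chr7:148581442-148581633 (minus strand), SMARCB1 from chr22:24128903-24129149 (plus strand), ARID1A from chr1:27022256-27022505 (plus strand) and PBRM1 from chr3:52719930-52720179 (minus strand). Bases inside the deposited transcripts were left off, and capitals mark matches on either strand to any motif searched.
EZH2: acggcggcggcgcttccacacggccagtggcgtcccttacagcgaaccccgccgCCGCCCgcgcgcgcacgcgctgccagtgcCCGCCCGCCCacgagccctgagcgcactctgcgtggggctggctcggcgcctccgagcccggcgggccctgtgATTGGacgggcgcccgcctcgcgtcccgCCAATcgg
SMARCB1: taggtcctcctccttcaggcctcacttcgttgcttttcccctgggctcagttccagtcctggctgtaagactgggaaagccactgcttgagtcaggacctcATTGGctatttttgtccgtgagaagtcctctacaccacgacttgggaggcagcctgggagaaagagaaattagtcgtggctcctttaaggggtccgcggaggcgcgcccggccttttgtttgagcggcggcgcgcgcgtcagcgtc
ARID1A: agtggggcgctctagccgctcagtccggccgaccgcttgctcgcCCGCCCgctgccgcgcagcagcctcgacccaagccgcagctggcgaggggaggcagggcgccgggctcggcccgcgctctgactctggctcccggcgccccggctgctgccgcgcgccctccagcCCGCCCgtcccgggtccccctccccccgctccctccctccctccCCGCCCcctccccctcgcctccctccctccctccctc
PBRM1: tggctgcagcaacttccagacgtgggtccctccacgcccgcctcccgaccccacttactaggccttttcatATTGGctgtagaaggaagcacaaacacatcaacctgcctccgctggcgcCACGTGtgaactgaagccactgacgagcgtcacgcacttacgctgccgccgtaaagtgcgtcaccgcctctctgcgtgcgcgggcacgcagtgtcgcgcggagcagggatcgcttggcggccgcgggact
The GC box GGGCGG was found in 5 of the 8 whole windows and in 42.6% of 35116 promoter windows of the same length. The CCAAT box CCAAT was found in 3 of 8, those of PBRM1, SMARCB1 and EZH2, against 32.0% of all. EZH2 carried 4 matches to each of these motifs in its whole 250-base window, of which 3 GC boxes and 2 CCAAT boxes fall in the printed bases, and ARID1A carried 3 GC boxes and no CCAAT. The E box CACGTG was found in 2 of 8 (PBRM1 and KMT2D; 6.34% of all). The ETS motif CCGGAAG (8.52% of all) and the E2F motifs TTTCCCGC (1.39%) and TTTGGCGC (0.55%) matched none of the 8 windows. Members that were lower in A498 differed in which of these letters their windows held. Not every window adjoins the deposited transcript. The KMT2D window (chr12:49454578-49454827, minus strand) lies away from its entry, which begins at 49449107. The leading SMARCA4 entry, NM_001128848, starts at chr19:11094828, past its window (11071456 to 11071705).

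Levels spanned a wide range in both lines. In A498 the order by mean FPKM was SMARCB1 (30.1), BAP1 (25.01), SMARCA4 (21.7), EZH2 (12.8), KDM5C (7.95), SMARCC1 (5.83), ARID1A (3.01), SETD2 (2.11), PBRM1 (1.58) and KMT2D (1.09). No neighbours in that order had overlapping ranges. In 786-O the order was SMARCB1 (61.9), SMARCA4 (29.9), EZH2 (28.7), BAP1 (23.2), SMARCC1 (13.1), KDM5C (6.00), ARID1A (5.47), SETD2 (2.66), PBRM1 (2.49) and KMT2D (0.892), and there SMARCA4 overlapped EZH2 and SETD2 overlapped PBRM1. ARID1A, SETD2, PBRM1 and KMT2D were the lowest in each line. Over both lines, SMARCB1 had a higher mean FPKM than 82.7% of the 10503 genes tested, and PBRM1 than 12.6%.

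**Figure D1:**
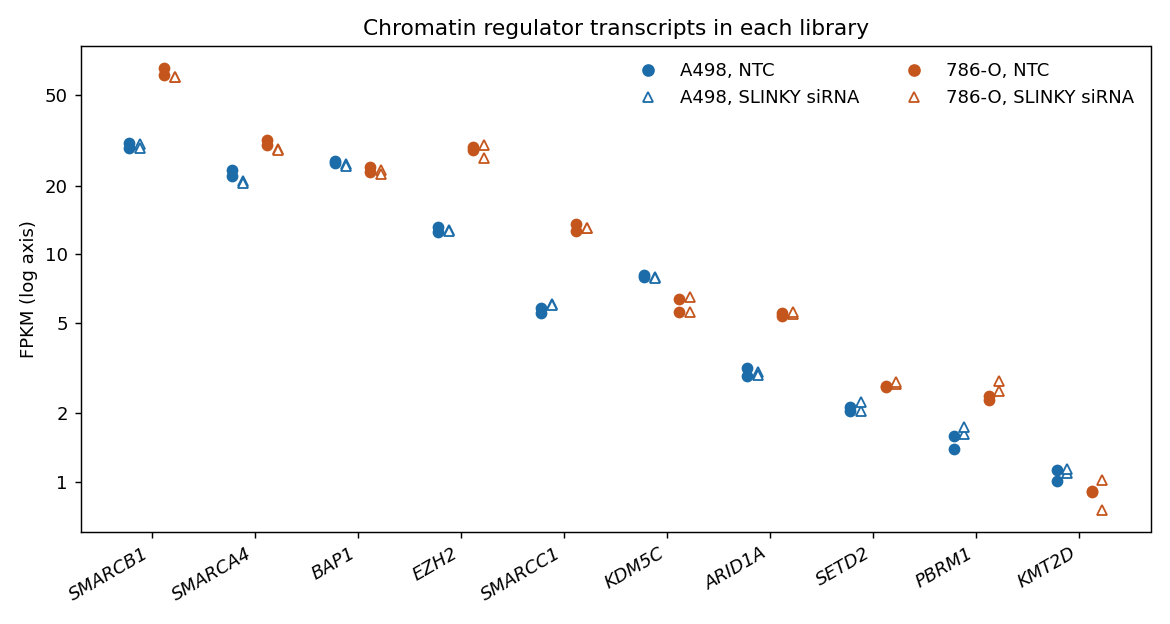
FPKM (log axis) of the 10 chromatin regulators in each of the 8 libraries, with A498 in blue and 786-O in orange, filled circles for NTC and open triangles for SLINKY siRNA libraries. SMARCB1, EZH2, SMARCC1 and ARID1A separate the lines most clearly, and NTC and siRNA libraries of a line lie close together.

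The comparison of A498 with 786-O asked how these regulators differ between the lines in which SLINKY was knocked down. Of the 9 members that reached a mean of 1 FPKM, 7 were lower in A498 and 2 were higher at a limma adjusted p under 0.05. This is read against a background in which 83.0% of all 10503 genes tested were called, 40.6% higher and 42.5% lower in A498, so a call alone says little about the members. Their median log2 difference, A498 minus 786-O, was -0.62, beside -0.017 for all genes tested, and the median size of the difference was 0.62 beside 0.50. EZH2, SMARCC1 and SMARCB1 were at least 2-fold lower in A498, as were 8.31% of all genes tested. KMT2D averaged under 1 FPKM over the 8 libraries and entered only the fit without a filter.

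The SWI/SNF core subunits SMARCC1 and SMARCB1 were lower in A498. SMARCC1, the scaffold subunit, was 5.53 and 5.81 FPKM in the A498 NTC libraries and 6.03 and 5.96 in the siRNA libraries, against 13.6, 12.7, 13.1 and 13.0 in 786-O in the same order. The highest A498 library was below the lowest 786-O library by more than the range within either line. The 4-library ranges of the lines did not overlap for 77.3% of genes tested, and all A498 libraries lay below all 786-O libraries for 39.6% of genes tested. The difference was -1.15 (SE 0.046, log2) or 2.22-fold, with a limma adjusted p of 6.23e-09.

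SMARCB1, the core subunit lost in rhabdoid tumors, was 31.0, 29.3, 30.6 and 29.4 FPKM in A498 (NTC 1, NTC 2, siRNA1, siRNA2) and 61.6, 65.8, 59.9 and 60.4 in 786-O. The lines did not overlap, and the difference was -1.04 (SE 0.040; 2.06-fold; limma adjusted p = 5.26e-09). Cufflinks, which estimates the FPKM of each entry, marked both SMARCB1 entries FAIL with a lower bound of 0 in 786-O NTC 1 and siRNA2. Their gene sums, 61.6 and 60.4, lie beside those of the other 786-O libraries, and without these libraries the difference was -1.06 (adjusted p = 2.39e-07). The entry NM_001007468 took 49.8 to 55.0% of the sum in A498. In 786-O it took 53.8% in NTC 2 and 62.7% in siRNA1. In the libraries marked FAIL it took 60.1% (NTC 1) and 72.5% (siRNA2). The split between entries thus overlapped where the sum did not. The 3′ end of SMARCB1 overlaps that of DERL3, whose main entry averaged 3.37% of the SMARCB1 level.

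SMARCA4, the ATPase, showed a narrower gap. It was 23.4, 22.1, 20.9 and 20.5 FPKM in A498 and 31.7, 30.2, 29.0 and 28.8 in 786-O. Although the lines did not overlap, the difference of -0.46 (SE 0.038; 1.38-fold; limma adjusted p = 1.59e-06) was smaller than those of SMARCC1 and SMARCB1. Of its 7 entries, NM_001128848 held 44.9 to 61.0% of the sum in A498 and 55.4 to 71.2% in 786-O, again with overlapping shares, and the highest single entry gave a difference of -0.76.

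ARID1A, the DNA-binding subunit that defines BAF, was 2.91, 3.14, 3.05 and 2.95 FPKM in A498 and 5.52, 5.35, 5.46 and 5.55 in 786-O. Its difference was -0.84 (SE 0.051; 1.79-fold; limma adjusted p = 1.39e-07), with no overlap, and the entry NM_139135 carried a mean of 81.7% of the sum in A498 and 82.3% in 786-O. PBRM1, the bromodomain subunit that defines PBAF, was 1.39, 1.58, 1.62 and 1.73 FPKM in A498 and 2.39, 2.28, 2.78 and 2.50 in 786-O. The lines did not overlap here either, and the difference was -0.62 (SE 0.070; 1.54-fold; limma adjusted p = 1.67e-05). Few reads lay behind it, an estimated 321 to 1089 per library, for a half-width of the deposited 95% interval between 6.06 and 11.2% of the value. Such intervals cover counting error only.

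Set against SMARCA4 in each library, the other subunits did not hold one proportion across the lines. All ratios here were taken on FPKM + 0.1, which moves those of low genes toward 1. The ratio of SMARCB1 to SMARCA4 had a median of 1.38 in A498 and 2.08 in 786-O, and that of SMARCC1 was 0.279 and 0.442. For ARID1A the medians were 0.147 and 0.186, and for these 3 ratios the ranges of the lines did not overlap. PBRM1 to SMARCA4, at 0.0788 (0.0633 to 0.0888) in A498 and 0.0843 (0.0782 to 0.0990) in 786-O, overlapped. Single genes did not overlap for 77.3% of genes tested, and the share over other pairs of genes was not computed. Nothing particular to these subunits is read from the ratios.

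EZH2 and SMARCC1 had nearly equal differences, the widest of the set by gene sums. EZH2 was 12.5, 13.1, 12.8 and 12.7 FPKM in A498 and 29.6, 28.7, 26.4 and 30.1 in 786-O. Every A498 library was thus under every 786-O library, and the difference was -1.16 (SE 0.049; 2.23-fold; limma adjusted p = 9.81e-09). Its main entry NM_152998 held a mean of 62.9% of the sum in A498 and 68.3% in 786-O, and NM_001203248 held 33.7% and 30.1%, so the leading pair was the same in both lines. The order of EZH2 and SMARCC1 turned in NTC libraries alone (-1.18 against -1.20) and without 786-O siRNA2 (-1.13 against -1.16). It also turned without the 786-O libraries in which SMARCB1 was marked FAIL (-1.10 against -1.13). With 0.01 added to FPKM in place of 0.1 it turned by a hair (-1.1652 against -1.1655). Centred on their own means over the 8 libraries, the profiles nearest to that of EZH2 by Euclidean distance on the log2 scale were those of KIF20A, a mitotic kinesin (0.0965), ADSL, an enzyme of purine synthesis (0.116), and CLSPN, the checkpoint adaptor claspin (0.130). Their line differences were -1.19, -1.16 and -1.15, close to that of EZH2. The measure thus mainly picks genes with a like line difference, and shared regulation was not tested.

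SETD2 was 2.12, 2.04, 2.05 and 2.24 FPKM in A498 and 2.63, 2.61, 2.68 and 2.74 in 786-O. These ranges did not overlap, and the difference of -0.32 (SE 0.058; 1.249-fold; limma adjusted p = 0.000518) was the smallest of the 7 decreases. Estimated reads ran from 464 to 1388 per library.

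KDM5C was one of the genes that went the other way. It was 8.12, 7.91, 7.92 and 7.86 FPKM in A498 and 5.59, 6.34, 5.59 and 6.47 in 786-O, all from the entry NM_004187. A498 was higher without overlap, by 0.40 (SE 0.061; 1.32-fold; limma adjusted p = 0.000146). Within 786-O the values did not separate by treatment, with NTC 1 and siRNA1 low and NTC 2 and siRNA2 high. The latter pair also had more estimated reads (64600000 and 47000000, against 36300000 and 36500000). The reason for the split was not tested.

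BAP1 was nearly level. It was 25.7, 25.1, 24.9 and 24.4 FPKM in A498 and 22.9, 24.1, 23.5 and 22.4 in 786-O. The lowest A498 value was above the highest 786-O value by less than the range within either line. The difference was 0.11 (SE 0.038, 95% interval 0.021 to 0.19; limma adjusted p = 0.0252). That call was lost in the NTC libraries alone (adjusted p = 0.20), in the siRNA libraries alone (0.166), and when A498 NTC 1 (0.0508), A498 siRNA1 (0.0687), 786-O NTC 1 (0.0773) or 786-O siRNA2 (0.0719) was left out.

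KMT2D was 1.13, 1.01, 1.10 and 1.13 FPKM in A498 and 0.896, 0.908, 1.01 and 0.753 in 786-O. The lines overlapped, at A498 NTC 2 and 786-O siRNA1. In the limma fit without a filter, in which 69.8% of 17055 genes were called, the difference was 0.27 (SE 0.095, 95% interval 0.042 to 0.50; adjusted p = 0.0391). A non-coding entry, RP11-386G11.5 (chr12:49392150-49412988), overlaps the end of KMT2D (chr12:49412758-49449107) and averaged 42.1% of its level. The shared stretch runs only from 49412758 to 49412988. The libraries are from a kit that does not mark strand, so reads in the shared bases cannot be told apart.

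**Figure D2:**
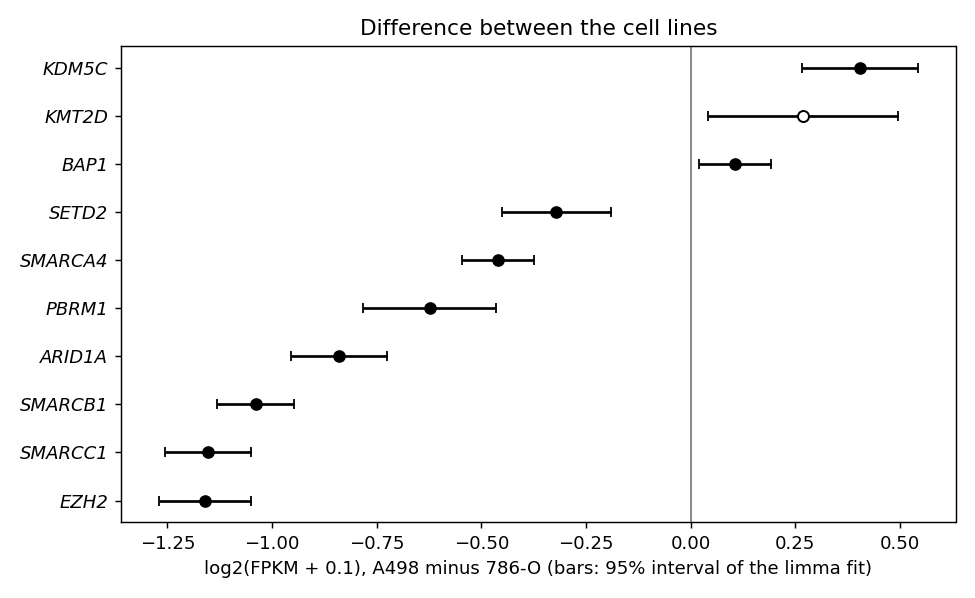
Difference in log2(FPKM + 0.1) between A498 and 786-O for the 10 genes, as points with 95% intervals from limma; the open point, KMT2D, comes from the fit without a filter. Intervals of 7 genes lie below 0, down to -1.16 for EZH2, and those of KDM5C, KMT2D and BAP1 lie above it.

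Paralogs of the members did not share one direction. Of 10 tested, 4 were called higher and 2 lower in A498, with a median difference of 0.088. Of all genes tested, 40.6% were called higher and 42.5% lower, so nothing particular to paralogs is read from this count. SMARCA2, the alternative ATPase, was higher in A498 (mean 11.7 against 7.79 FPKM; 0.58, SE 0.049; limma adjusted p = 1.74e-06), and so was SMARCC2, the alternative scaffold (8.87 against 6.62; 0.42, SE 0.051; adjusted p = 3e-05). ARID1B was lower (1.37 against 2.12 FPKM; -0.60, SE 0.069; adjusted p = 2.12e-05), while ARID2 of PBAF differed by -0.18 (adjusted p = 0.123). The H3 lysine 4 demethylases KDM5A (0.73, SE 0.066; adjusted p = 3.26e-06) and KDM5B (1.46, SE 0.051; adjusted p = 2.38e-09) were higher in A498, like KDM5C. KMT2A was lower (-0.63, SE 0.080; adjusted p = 4.35e-05), and KMT2C (-0.054; adjusted p = 0.568), KMT2B (0.020; adjusted p = 0.815) and EZH1 (0.16; adjusted p = 0.122) did not pass.

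The ratio within a paralog pair, again taken on FPKM + 0.1, also differed between the lines. SMARCC1 to SMARCC2 had a median of 0.655 in A498 and 1.95 in 786-O, which places SMARCC2 above SMARCC1 in A498 and below it in 786-O. EZH2 to EZH1 was 5.14 against 13.5, SMARCA4 to SMARCA2 1.82 against 3.80, and KDM5C to KDM5B 1.24 against 2.62. Ranges of the lines did not overlap for these 4 pairs, for ARID1A to ARID1B (2.11 against 2.51) or for KDM5C to KDM5A (2.60 against 3.18). KMT2D to KMT2C was 1.00 in A498 and 0.864 in 786-O, also without overlap, at 0.938 to 1.21 and 0.685 to 0.913. These separations stand beside 77.3% of single genes without overlap. The share over other pairs of genes was not computed, so nothing particular to paralog pairs is read from them. Reads of 36 bases can be shared between close paralogs and pseudogene copies, and how they were divided is not given in the sources used here.

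**Figure D3:**
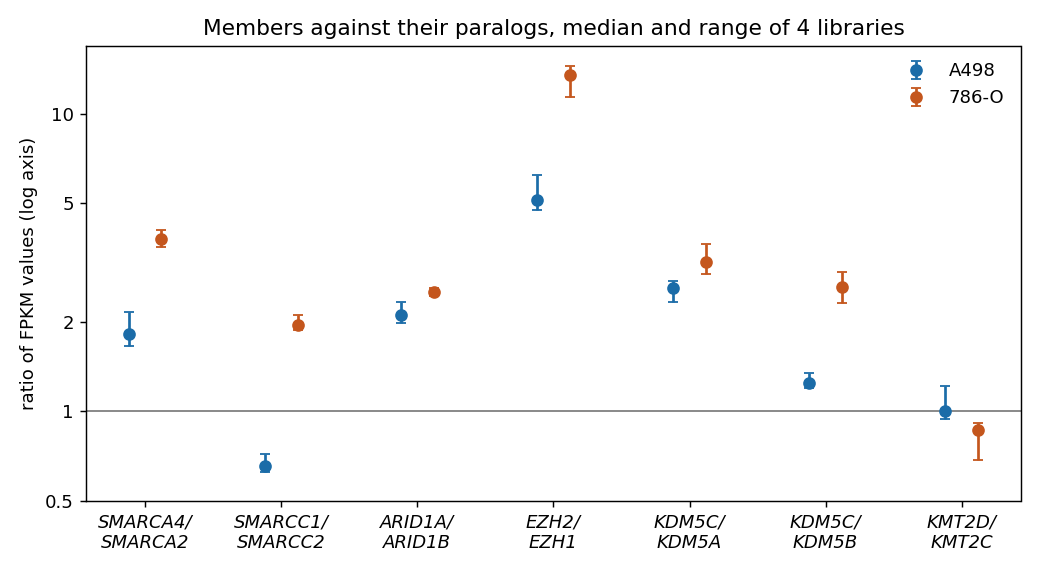
Ratio of FPKM + 0.1 (log axis) of 7 member and paralog pairs in A498 (blue) and 786-O (orange), as the median and the range of 4 libraries. SMARCC1 to SMARCC2 crosses 1 between the lines, from 0.655 in A498 to 1.95 in 786-O.

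Genes of the same machines outside the set were counted from lists of known subunits and partners. These lists count the paralogs above again. Of 24 SWI/SNF subunits outside the set, 19 were tested, 12 lower and 3 higher in A498 with a median of -0.43. As for the members, these counts and those of the lists that follow stand beside 42.5% of all genes called lower and 40.6% called higher, and nothing particular to a list is read from them. The widest were PHF10, a PBAF subunit (3.72 against 15.2 FPKM, -2.00), SMARCD3, an accessory subunit (5.94 against 18.5, -1.62), and BCL7A of BAF (1.496 against 3.01, -0.96). Among 10 PRC2 genes, 5 were lower and 2 higher, with a median of -0.20. RBBP4 (-0.98) and RBBP7 (-0.81), histone-binding proteins that PRC2 shares with deacetylase complexes, and the accessory subunit JARID2 (-0.84) were lower.

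For BAP1, 7 of 10 complex members were tested, 4 lower and 1 higher with a median of -0.20. ASXL1, which activates the deubiquitinase, was lower in A498 by the sum of its entries (-0.41, adjusted p = 4.58e-05), but its highest entry alone gave 0.033. FOXK1, a forkhead factor that binds BAP1, was higher (0.66). KDM1B, an H3 lysine 4 demethylase, was lower (-1.07). Of 15 H3 lysine 4 methylation genes, 14 were tested, 6 lower and 4 higher, with a median of -0.017 equal to that of all genes. WDR5, a core subunit shared by the methyltransferases, was lower (-0.84) and its partner ASH2L higher (0.75), the latter not passing with its highest entry alone (adjusted p = 0.164). KDM6A, the H3 lysine 27 demethylase that sits with KMT2D, was higher (0.89).

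The 4 H3 lysine 4 demethylases outside the set divided evenly, 2 higher (KDM5A and KDM5B, given above) and 2 lower. Their median was -0.17, and KDM1A was 18.0 against 44.2 FPKM (-1.29). Of 14 genes of H3 lysine 36 methylation and its readers, 12 were tested, 6 lower and 3 higher with a median of -0.078. ZMYND11, a reader of the trimethyl mark placed by SETD2, was lower (-1.30), as was NSD2, which places the dimethyl mark (-1.25), and the DNA methyltransferase DNMT3B was higher (0.74). All of these named differences passed at a limma adjusted p of 0.000408 or less. Among the 6 groups the SWI/SNF list thus had the lowest median, and the H3 lysine 4 methylation list the one closest to all genes. The groups held from 4 to 19 tested genes, and KDM1B was counted in both the BAP1 and the demethylase group. This order is a description only.

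The members SETD2, SMARCC1, BAP1 and PBRM1 lie on the short arm of chromosome 3 in hg19, with SETD2 at chr3:47057898-47205467, SMARCC1 at chr3:47627378-47823405, BAP1 at chr3:52435025-52444009 and PBRM1 at chr3:52579368-52719866. Of 273 genes tested on that arm, 182 were lower and 48 higher in A498, or 66.7% and 17.6%, and their median difference was -0.36 beside -0.017 for all genes tested. Without the 4 members the median of the other 269 was again -0.36. Between the outer ends of SETD2 and PBRM1, the 88 other genes had 55 lower and 20 higher, with a median of -0.30. SMARCC1 (-1.15) and PBRM1 (-0.62) were below the median of the arm, SETD2 (-0.32) was near it and BAP1 (0.11) was above the arm's upper quartile of -0.011. Chromosome 3 as a whole had the third lowest median of 23 chromosomes (-0.32), after 18 (-0.45) and 6 (-0.36). Copy number was not measured, and its part in these values was not tested.

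**Figure D4:**
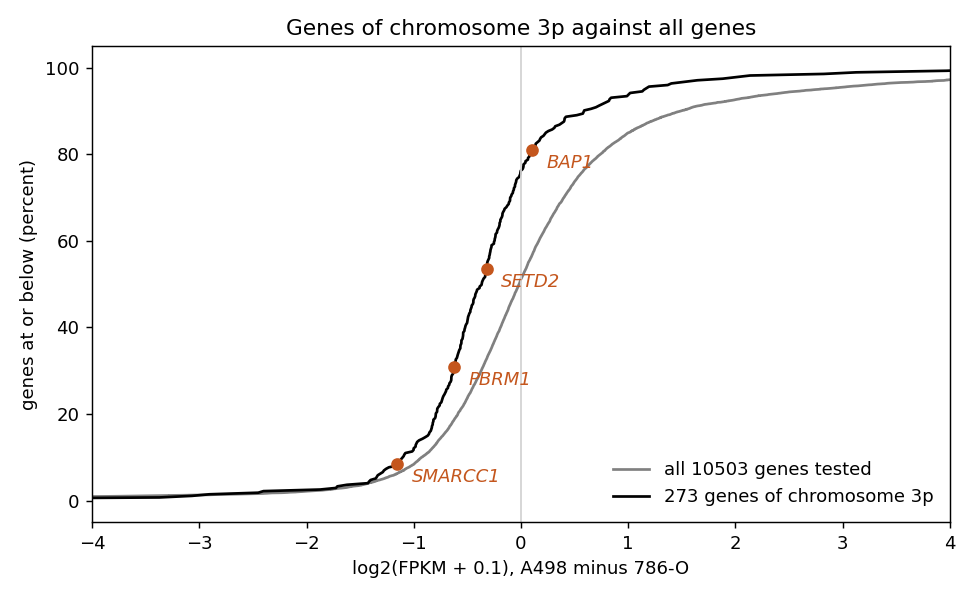
Cumulative share (percent) of genes by their log2(FPKM + 0.1) difference, A498 minus 786-O, for the 273 genes tested on chromosome 3p (black) and all 10503 genes tested (grey), with the 4 members on that arm as orange points. The 3p curve lies to the left, with its median at -0.36 against -0.017, and BAP1 falls on its right-hand part.

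The second comparison asked whether SLINKY knockdown moved these genes. No member was called in any knockdown comparison. Over both lines the limma fit called 0 of 10503 genes (0.0%) at an adjusted p under 0.05, with 1249 (11.9%) at an unadjusted p under 0.05. The separate fits called 3 genes (0.0286%) in A498 and 0 in 786-O, and none of the listed complex members and paralogs was among them. An unadjusted limma p under 0.05 was found for 639 genes (6.08%) in A498 and 398 (3.79%) in 786-O. Without the A498 siRNA1 or siRNA2 library the A498 count was 156 or 96, without 786-O siRNA1 the 786-O count was 2, and without 786-O siRNA2 the count over both lines was 4, and no member was called in any of these fits either (lowest limma adjusted p of a member over all settings 0.272 over both lines, 0.376 in A498 and 0.764 in 786-O). With 2 siRNA libraries against 2 NTC libraries in a line, small changes may pass unseen at this size.

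SMARCA4 and PBRM1 were the members with an unadjusted p under 0.05 over both lines. SMARCA4 was 20.9 and 20.5 FPKM with the siRNAs against 23.4 and 22.1 in A498 NTC, and 29.0 and 28.8 against 31.7 and 30.2 in 786-O. Both siRNA libraries lay under both NTC libraries in each line, as in 4.97% of genes tested. The difference, knockdown minus NTC, was -0.12 (SE 0.038, 95% interval -0.20 to -0.030; limma adjusted p = 0.37). It was -0.13 in A498 and -0.099 in 786-O. With only the highest of its 7 entries in place of the sum, the difference was -0.025 over both lines (adjusted p = 0.959), and in 786-O it turned to 0.031.

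PBRM1 was 1.62 and 1.73 FPKM with the siRNAs against 1.39 and 1.58 in A498 NTC, and 2.78 and 2.50 against 2.39 and 2.28 in 786-O. Both siRNA libraries lay above both NTC libraries in each line, as in 6.75% of genes tested. The difference was 0.17 (SE 0.070, 95% interval 0.0082 to 0.33; limma adjusted p = 0.405), with 0.16 in A498 and 0.17 in 786-O. The value in A498 was 0.075 without NTC 1 and 0.25 without NTC 2, and that in 786-O was 0.097 without siRNA1 and 0.24 without siRNA2. No other tested member kept the siRNA and NTC libraries apart in one direction in both lines, which 11.7% of genes tested did.

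For the other 7 tested members the difference over both lines ran from -0.044 for SMARCB1 to 0.043 for SETD2, with limma adjusted p from 0.663 to 0.987. EZH2 moved to -0.25 (adjusted p = 0.519) when its highest entry replaced the sum. For BAP1 the 95% interval was -0.12 to 0.046, for EZH2 -0.14 to 0.082, for ARID1A -0.11 to 0.12 and for KDM5C -0.14 to 0.14. KMT2D, in the fit without a filter, gave 0.0088 (95% interval -0.22 to 0.24; adjusted p = 0.989). No member's knockdown effect was shown to differ between the lines (interaction adjusted p of 1.0 for each tested member), and 1 of 10503 genes (0.00952%) was called there.

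Each siRNA library was also set against the NTC mean of its line, with no test, at the fold threshold the study uses for knockdown (0.32 on the log2 scale). None of the 10 members passed it with either siRNA in either line. The background past that threshold was 3.78% and 5.49% of genes for siRNA1 and siRNA2 in A498, 5.97% and 3.91% in 786-O, and 4.67% and 4.63% for NTC 2 against NTC 1. The widest member values were 0.24 for PBRM1 with siRNA1 and -0.23 for KMT2D with siRNA2, both in 786-O. PBRM1 was above the NTC mean in all 4 siRNA libraries, as were 18.0% of genes, and BAP1 and SMARCA4 were below it in all 4, as were 14.0%. In 786-O the siRNA1 and siRNA2 libraries had opposite signs for KMT2D (0.15 and -0.23), KDM5C (-0.088 and 0.12) and EZH2 (-0.15 and 0.047). With 1 library per siRNA in a line, siRNA and library cannot be told apart.

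**Figure D5:**
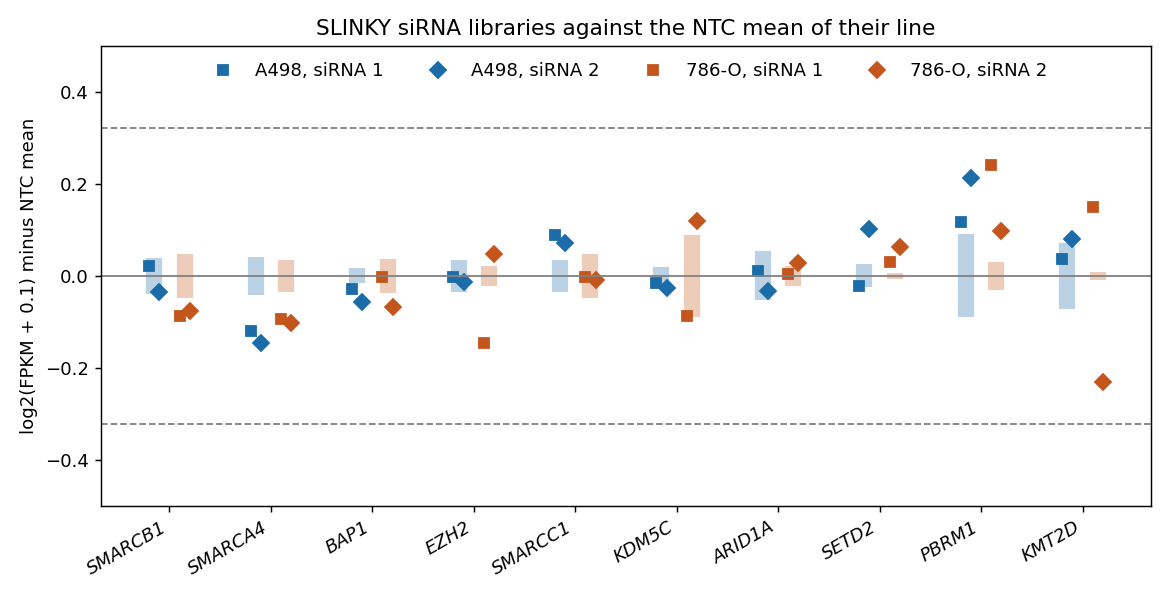
Difference in log2(FPKM + 0.1) between each SLINKY siRNA library and the NTC mean of its line for the 10 genes (squares siRNA1, diamonds siRNA2, blue A498, orange 786-O); shaded bars span the 2 NTC libraries and dashed lines mark the fold threshold, 0.32 either way. All points lie inside the dashed lines, and both SMARCA4 points of each line lie below its bar.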

How the data were processed

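Total RNA of 8 libraries was sequenced from a TruSeq kit as single-end 36-base reads. Per the labels' processing notes the authors used TopHat2 2.0.0, Cufflinks 2.0.2 and hg19, and deposited FPKM with 95% intervals for 75378 entries per library. Files held the same entries in different orders and were joined by entry and position. FPKM of the RefSeq coding entries was summed per current symbol (97.7% of 35951 entries matched). Genes with a mean of at least 1 FPKM (10503) were tested on log2(FPKM + 0.1) with limma 3.58.1 (R 4.3.3) with a mean-variance trend and Benjamini-Hochberg adjustment at 0.05, for line with treatment as covariate, and for knockdown over both lines, within each line and as an interaction. FPKM is no count, so no count test was run; depth was estimated from the deposited intervals. A fold on this scale understates changes of low genes. Alternatives changed the pseudocount, filter, scaling, entries, replicate block and libraries. Named genes were all members and paralogs, and up to 3 called genes with the largest line difference from each other list. Members and lists were chosen with earlier results of these data known.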

Additional observations from a re-analysis of the deposited data

Results flagged for a closer look

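SMARCC1 was the member for which the siRNAs moved opposite ways in the lines. Against the NTC mean of the line, it was 0.089 and 0.072 higher (log2, siRNA1 and siRNA2) in A498 and -0.0036 and -0.010 in 786-O. The interaction was 0.0874 (limma adjusted p = 1.0), so the difference between the lines did not pass the test. NTC 2 differed from NTC 1 by 0.071 in A498, about the size of the siRNA values there. In 786-O the siRNA values lie within the gap between its NTC libraries (-0.095).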

How the results depend on the processing

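The differences between the lines kept their direction and side of the threshold for all tested members but BAP1 under every alternative run. BAP1 stayed higher in A498 (0.071 to 0.13, adjusted p 0.0107 to 0.22) and lost its call in 7 alternatives, 1 of them, without the 786-O libraries in which SMARCB1 was marked FAIL (0.071, adjusted p = 0.22), added after seeing the data. The cause was not tested. Among genes outside the set, KMT2B, which passed in no setting, turned to -0.020 in siRNA libraries only, to -0.041 without the FAIL libraries and ran from -0.034 to 0.069 with 1 library left out. ASXL1 turned to 0.033 with its highest entry. EZH1 passed without A498 NTC 2 (adjusted p = 0.0371).

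No member passed in any knockdown or interaction fit under any alternative (lowest adjusted p 0.272). Near-zero differences changed sign: ARID1A to -0.0092 with median ratio scaling, SMARCB1 to 0.042 and SMARCA4 in 786-O to 0.031 with the highest entry. That setting also moved EZH2 to -0.25. With 1 library left out, KDM5C ran from -0.048 to 0.035, ARID1A from -0.016 to 0.027 and EZH2 from -0.062 to 0.014.

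Calls over all genes were few and moved. For knockdown in A498 (3) they were 0 with no filter, 1 with a filter at 5 FPKM, 20 with non-coding entries added, and 2 to 156 with 1 library left out, 156 without siRNA1 and 96 without siRNA2; the lone sample of an arm is then assumed to vary like the rest. In 786-O (0) they were 1 with no filter or a filter at 5, 16 with non-coding entries, and 0 to 2 with 1 left out. Over both lines (0) they were 1 with non-coding entries, 2 without the FAIL libraries, and 0 to 4 with 1 left out. For the interaction (1) they were 0 at a pseudocount of 1 or a filter at 5, 4 with no filter, 16 with non-coding entries, and 1 to 6 with 1 left out.

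With the replicate block, 8723 genes were called between the lines (8718 without it), 3 in A498 and 0 over both lines, and no member's call changed. In each line, the difference between the NTC libraries was correlated over 10503 genes with that between the siRNA libraries, in the same order of numbers. This correlation of differences was 0.254 in A498 and -0.031 in 786-O. These values do not decide whether the numbers pair libraries, and the fits without the replicate block did not pair them.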
